A study of Mus musculus with 8 samples.

Results

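The BMP-hemojuvelin-hepcidin axis was read here as 10 genes, matched by symbol and joined by Ensembl identifier, out of 55536 genes counted in 8 HCA-1 liver tumors. All 10 passed the filter on low counts that left 15998 genes for testing. *Hfe2* and *Smad9* had been selected on their lower values after treatment in these same tumors, so their levels and fold changes are a description and carry no test of their own. The other 8 genes are the ligands, receptor partners, inhibitory SMADs, target genes and protease that surround this pair in the pathway.

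HCA-1 is a mouse hepatocellular carcinoma line, implanted under the liver capsule of male C3H mice that the labels give as 6 to 8 weeks old. Imiquimod (IMQ), a TLR7 agonist, was carried in phospholipid-free small unilamellar vesicles (PFSUV) and given as a single intravenous dose of 4 mg per kg on day 17. The 4 treated tumors, labelled IMQNP 1, 2, 3 and 4, were taken 3 h later. The 4 control tumors, labelled Control 1, 3, 4 and 5, came from implanted mice given saline in place of the vesicles. Every mouse of both groups carried the same tumor line, no empty-vesicle group was analysed here, and each library is from a separate tumor with no batch stated.

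Hepcidin, encoded by *Hamp*, is the liver hormone that lowers plasma iron by driving the iron exporter ferroportin from the cell surface. Hepatocytes adjust its transcription to iron through BMP ligands from the neighbouring sinusoidal endothelium, which engage BMP receptors together with the coreceptor hemojuvelin and act through receptor-activated SMAD proteins. Inflammatory IL-6 raises the same gene through STAT3, and inhibitory SMADs and a membrane protease damp the BMP input.

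The libraries held 16883911 to 27687756 counts in the saline group and 17008151 to 18527613 in the PFSUV-IMQ group. A floor of 3 counts corresponded to 0.108 to 0.178 CPM, here each count as a share of its library total. All CPM given below are normalized, with the library totals adjusted by TMM factors. All 8 interferon-stimulated genes used to check the treatment labels were called higher in the treated tumors, with summed levels of 157 to 256 CPM against 5635 to 18986 CPM. Hepatocyte transcripts differed widely between tumors of one group. The summed level of 17 hepatocyte markers, led by *Alb*, was 16906, 18200, 45100 and 6263 normalized CPM in saline tumors 1, 3, 4 and 5, and 10742, 54260, 14565 and 14538 in PFSUV-IMQ tumors 1 to 4. Saline tumor 4 and PFSUV-IMQ tumor 2 stood highest in their groups, and the groups overlapped. EdgeR and DESeq2 called 0 of the 17 markers, with 0 at an unadjusted p under 0.05. Their median log2 fold change was 0.31, with 14 above 0 and 3 below. In bulk tumor RNA, fewer cells of a type and less RNA per cell cannot be told apart, and neither can transcripts of the tumor cells and of host liver taken along with the nodule.

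Letters upstream of the start were examined first, because the *Hamp* promoter is where the BMP and IL-6 inputs are known to meet. RefSeq windows on GRCm38.p6, running from 250 bases before to 50 bases after the start, were held for 5 of the 10 genes: *Smad9*, *Smad6*, *Bmp6*, *Hamp* and *Tfr2*. The pair below is shown because *Hamp* is the endpoint of the axis and *Smad9* is the selected gene with a window. Each runs 5′ to 3′ from 250 to 11 bases upstream, for *Hamp* on the minus strand at chr7:30944040-30944279 and for *Smad9* on the plus strand at chr3:54755332-54755571. Capitals mark the palindromic core GGCGCC of the BMP-responsive element and, in *Hamp* only, the STAT site TTCNNNGAA.
Hamp: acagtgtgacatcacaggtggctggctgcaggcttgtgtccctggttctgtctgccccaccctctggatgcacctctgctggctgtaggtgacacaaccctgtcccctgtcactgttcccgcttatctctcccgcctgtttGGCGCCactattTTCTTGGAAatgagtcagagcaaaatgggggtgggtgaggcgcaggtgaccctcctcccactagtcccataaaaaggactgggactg
Smad9: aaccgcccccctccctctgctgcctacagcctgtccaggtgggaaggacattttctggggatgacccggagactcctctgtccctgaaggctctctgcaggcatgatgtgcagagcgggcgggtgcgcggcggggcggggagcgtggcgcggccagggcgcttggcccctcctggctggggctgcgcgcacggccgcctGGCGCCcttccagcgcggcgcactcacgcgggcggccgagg

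The *Hamp* window held GGCGCC with its first base 109 upstream and TTCTTGGAA with its first base 97 upstream, so the matches lie within a few bases of each other. The *Smad9* window held GGCGCC 51 bases upstream and no STAT site. Neither pattern occurred in the windows of *Smad6*, *Bmp6* or *Tfr2*. Both patterns read the same on both strands and do not overlap each other, and of 32851 windows of this length 11.9% held GGCGCC and 8.30% held TTCNNNGAA. Another palindrome, the E-box CANNTG, was present in 72.3% of windows, among them those of *Smad9*, *Smad6*, *Bmp6* and *Hamp*. These are matches of letters in a window, and no factor's binding was measured.

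In the comparison of PFSUV-IMQ with saline, 2 of the 10 genes were called lower (*Hfe2* and *Smad9*) and 0 were called higher. A call here needed a log2 fold change over 1 in size together with an adjusted p under 0.05 (quasi-likelihood test of edgeR, Benjamini-Hochberg method, 15998 genes). Over all genes tested, 0.200% were called lower and 2.26% were called higher. Since the pair was chosen by this contrast, nothing is read from the first count. At an unadjusted p under 0.05, 1 gene was higher (*Id1*) and the same pair was lower, where 8.34% of all genes were higher and 4.65% lower. DESeq2 called 0 of the 10 higher and the same 2 lower, with 3.58% and 0.713% of all genes. The same pair were also the members whose tumors did not overlap between groups, where 3.28% of all genes lay wholly lower and 6.00% wholly higher after treatment. The median log2 fold change of the 10 genes was 0.04, beside -0.03 over all genes tested. *Smad9* sat just inside the threshold with an edgeR adjusted p of 0.0499, and the nearest gene outside it was *Id1* with an edgeR adjusted p of 0.323.

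**Figure D1:**
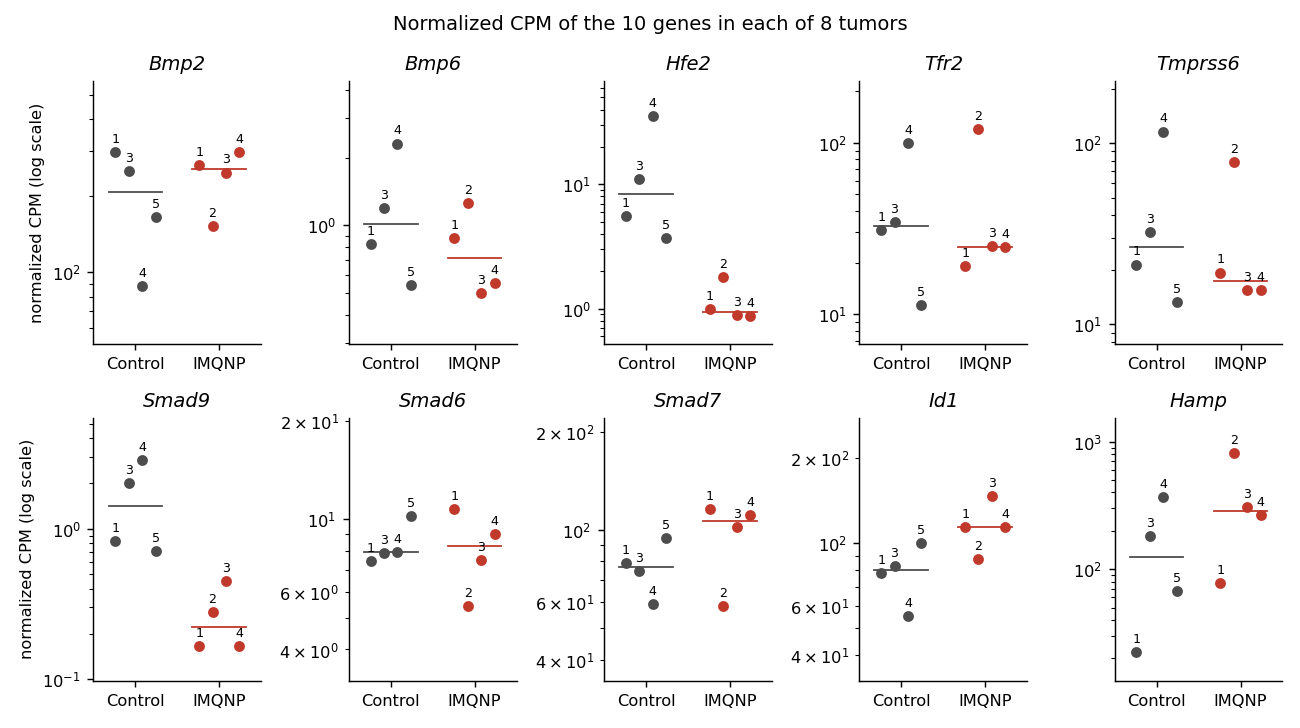
Normalized CPM (log axis, a separate scale in each panel) of the 10 genes, with 1 point for each tumor, its replicate number above it, and a line at the group median (Control, saline; IMQNP, PFSUV-IMQ). Only the Hfe2 and Smad9 panels show groups that do not overlap. Control 4 and IMQNP 2 lie highest in their groups for Hfe2, Tfr2, Tmprss6, Hamp and Bmp6.

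Among the ligands, *Bmp2* (chromosome 2, 133552159 to 133562885, GRCm38), a growth factor that liver endothelium supplies to hepatocytes, was the more abundant one per kilobase. Its level was 297, 250, 88.3 and 165 normalized CPM in saline tumors 1, 3, 4 and 5, and 264, 151, 247 and 298 in PFSUV-IMQ tumors 1 to 4. The groups overlapped almost wholly, and the lowest value of each group was in its tumor with the most hepatocyte transcripts, Control 4 or IMQNP 2. The log2 fold change was 0.26 (SE 0.361, edgeR adjusted p = 0.845).

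*Bmp6* (chromosome 13, 38345107 to 38500302), the ligand known to follow liver iron stores, was close to the limit of counting. It was at 0.8295, 1.195, 2.32 and 0.543 normalized CPM in the saline tumors and 0.883, 1.258, 0.502 and 0.551 in the treated ones, from 10 to 54 reads in the former and 9 to 18 in the latter. The groups overlapped, with a log2 fold change of -0.63 (SE 0.501, edgeR adjusted p = 0.701). Of its exon bases, 5.74% lie under *Txndc5* on the opposite strand and 4.94% of its 50-base words occur in that gene too. Since no source used here states whether counting used strand, its level is uncertain to that extent.

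*Hfe2* (also *Hjv*, ENSMUSG00000038403, chromosome 3, 96525172 to 96529210) encodes hemojuvelin, a membrane-anchored coreceptor through which hepatocytes bind BMP ligands. It was at 5.53, 11.1, 35.7 and 3.69 normalized CPM in saline tumors 1, 3, 4 and 5. In PFSUV-IMQ tumors 1 to 4 it was at 0.993, 1.82, 0.892 and 0.882. The lowest saline tumor thus lay above the highest treated one, and saline tumor 4 held more than the other 3 saline tumors together.

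The reads behind these levels numbered 120, 317, 831 and 68 in the saline tumors and 18, 26, 16 and 16 in the treated ones. The group means were 14.01 ± 14.8 CPM with saline and 1.15 ± 0.450 CPM with PFSUV-IMQ (SD, n = 4 each). The log2 fold change of -3.62 (SE 0.725, edgeR adjusted p = 0.0309), a 12.3-fold lower level, placed *Hfe2* at rank 1 of the tested genes from the lower end. With each of the 8 tumors left out in turn, its call was kept in 4 fits and lost without Control 3 (log2 fold change -3.72), IMQNP 1 (-3.56), IMQNP 3 (-3.49) or IMQNP 4 (-3.48), with edgeR adjusted p from 0.0709 to 0.101. Without Control 4, which had the most *Hfe2* reads, the log2 fold change was -2.58 and the call was kept.

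Skeletal muscle is the other known source of hemojuvelin, and its markers were scarce in both groups. Of 13 muscle markers 3 passed the filter on low counts, their summed level was 4.64 to 5.65 CPM with saline and 4.63 to 6.78 CPM with PFSUV-IMQ, and *Myh4* and *Tnnc2* had no read in any tumor. The 3 tested markers did not move one way, with log2 fold changes of 0.78 for *Ttn* (edgeR adjusted p = 0.360), -0.27 for *Mylpf* (0.815) and -0.77 for *Tnni2* (0.374). Of these *Ttn* and *Tnni2* had an unadjusted p under 0.05, in opposite directions.

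*Tfr2* (chromosome 5, 137569840 to 137587481) encodes transferrin receptor 2, a hepatocyte sensor of iron-loaded transferrin. It was at 30.9, 34.4, 99.1 and 11.3 normalized CPM with saline and at 19.0, 121, 24.9 and 24.5 after PFSUV-IMQ. The highest tumor of each group was the one with the most hepatocyte transcripts, and the groups overlapped. The log2 fold change was 0.10 (SE 0.734, edgeR adjusted p = 0.975), turned to -0.96 without IMQNP 2 and was 0.88 without Control 4.

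*Tmprss6* (chromosome 15, 78439667 to 78468634) encodes matriptase-2, the protease that cleaves hemojuvelin from the hepatocyte surface. Its levels were 21.4, 32.3, 116 and 13.2 normalized CPM with saline and 19.3, 78.9, 15.5 and 15.5 after PFSUV-IMQ. The groups overlapped and the same pair of tumors stood high, with a log2 fold change of -0.50 (SE 0.751, edgeR adjusted p = 0.860). Leaving out Control 4 turned it to 0.53, and leaving out IMQNP 2 moved it to -1.46, without a call in either fit.

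*Smad9* (ENSMUSG00000027796, chromosome 3, 54755582 to 54801257) encodes SMAD8, a receptor-activated SMAD that BMP receptors phosphorylate alongside SMAD1 and SMAD5. It was at 0.8295, 2.003, 2.88 and 0.706 normalized CPM in the saline tumors and 0.166, 0.279, 0.446 and 0.165 in the treated ones. No treated tumor reached the lowest saline tumor. The counts were small, at 18, 57, 67 and 13 reads with saline and 3, 4, 8 and 3 with PFSUV-IMQ, so that IMQNP 1 and IMQNP 4 stood at the floor of 3 counts.

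The group means of *Smad9* were 1.604 ± 1.03 and 0.264 ± 0.133 CPM (SD, n = 4 each). Its log2 fold change of -2.59 (SE 0.578, edgeR adjusted p = 0.0499) corresponds to a 6.01-fold lower level. The call was kept in 1 of the 8 fits that left out a tumor, the one without Control 5, and lost in the other 7, where the log2 fold change ran from -2.96 to -2.16 and the edgeR adjusted p from 0.0671 to 0.155. A filter that required 10 counts in every tumor removed the gene.

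Neither inhibitory SMAD gene was called. *Smad6* (chromosome 9, 63953076 to 64022059), an inhibitory SMAD that BMP signaling induces, was the steadiest of the 10 genes in the saline tumors. It was at 7.47, 7.91, 7.95 and 10.2 normalized CPM with saline and 10.8, 5.45, 7.53 and 8.99 after PFSUV-IMQ, and the groups overlapped throughout. Its log2 fold change was -0.03 (SE 0.244, edgeR adjusted p = 0.977) and took either sign when tumors were left out, from -0.19 to 0.10.

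*Smad7* (chromosome 18, 75367529 to 75395935), an inhibitory SMAD shared with TGF-β signaling, was at 78.9, 74.7, 59.3 and 94.7 normalized CPM with saline. After PFSUV-IMQ it was at 116, 58.5, 102 and 111. In 3 of the 4 treated tumors the level lay above every saline tumor, and IMQNP 2 lay below them all. The log2 fold change was 0.34 (SE 0.237, edgeR adjusted p = 0.652).

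*Id1* (chromosome 2, 152736251 to 152737410), which encodes an inhibitor of DNA binding and is a standard readout of BMP-SMAD transcription, was at 78.3, 82.9, 55.2 and 99.9 normalized CPM with saline. After PFSUV-IMQ it was at 114, 87.6, 146 and 114. In 3 of the 4 treated tumors it lay above every saline tumor, with IMQNP 2 inside the saline range. The log2 fold change of 0.55 (SE 0.220) had an unadjusted p of 0.0336 and an edgeR adjusted p of 0.323. It remained positive in all 8 fits that left out a tumor, from 0.40 to 0.68.

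*Hamp* (chromosome 7, 30942368 to 30944032) had the widest fold range of the 10 genes within each group. Hepcidin transcripts were at 22.6, 181, 371 and 67.8 normalized CPM with saline, a 16.4-fold span, and at 78.1, 812, 305 and 264 after PFSUV-IMQ. The groups overlapped, the highest value of each group fell in its tumor with the most hepatocyte transcripts, and Control 1 lay below every other tumor. The log2 fold change was 1.18 (SE 0.846, edgeR adjusted p = 0.655), with a range of 0.42 to 2.01 when each tumor was left out. Of the 50-base words of the *Hamp* transcripts, 16.6% also occur in the neighbouring paralog *Hamp2*, so reads could be split between the pair. *Hamp2* itself was at 0 to 2.62 CPM with saline and 0.0552 to 4.75 CPM with PFSUV-IMQ.

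Hepatocyte marker levels varied with several of these genes, so each was set against the geometric mean of the 17 hepatocyte markers in the same tumor. Pearson correlations were taken of log2 CPM residuals from the group means over the 8 tumors. *Hfe2* gave r = 0.88 with the hepatocyte marker mean and 0.93 with that of liver sinusoidal endothelial markers. *Tmprss6* gave 0.94 and 0.98, *Bmp6* 0.85 and 0.93, *Tfr2* 0.99 and 0.90, *Smad9* 0.72 and 0.64, and *Hamp* 0.78 and 0.76. The other genes ran against both means, with *Smad7* at -0.93 and -0.85, *Id1* at -0.84 and -0.90, *Smad6* at -0.79 and -0.50, and *Bmp2* at -0.61 and -0.86. The source of this variation was not tested. In the saline group *Hfe2*, *Smad9*, *Bmp6*, *Tfr2* and *Tmprss6* ranked the 4 tumors in the same order as the marker sum. In the PFSUV-IMQ group *Tfr2* and *Hamp* did so. Per 1000 CPM of the marker mean, *Hfe2* was at 20.5, 28.7, 36.2 and 33.9 CPM in saline tumors 1, 3, 4 and 5, so a 9.67-fold span of levels narrowed to 1.77-fold in this group. The treated tumors were at 4.32, 1.32, 2.30 and 2.35 CPM on this scale, so their span widened from 2.06-fold to 3.27-fold, and the lowest was IMQNP 2, the tumor with the most hepatocyte transcripts.

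*Smad9* on this scale was at 3.07, 5.16, 2.92 and 6.48 CPM with saline and 0.720, 0.203, 1.15 and 0.441 CPM with PFSUV-IMQ, where the treated span widened from 2.70-fold to 5.65-fold. *Tfr2* was nearly constant with saline, at 114, 88.5, 101 and 104 CPM per 1000, and was at 82.6, 87.8, 64.0 and 65.4 CPM after PFSUV-IMQ, so its groups met but did not overlap. *Tmprss6* overlapped, at 79.2, 83.2, 118 and 121 against 84.0, 57.4, 39.9 and 41.3. *Hamp* overlapped too, at 83.6, 466, 376 and 622 against 340, 591, 786 and 704. On this scale 2.47% of all tested genes lay wholly lower with PFSUV-IMQ and 1.06% wholly higher. *Hfe2* and *Smad9*, which lay wholly lower too, had been chosen by their lower values. Of the 8 other genes *Tfr2* was the 1 whose groups lay apart, by the step from 88.5 to 87.8 CPM. The hepatocyte markers that set this scale had a median log2 fold change of 0.31, and their part in this step was not tested.

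**Figure D2:**
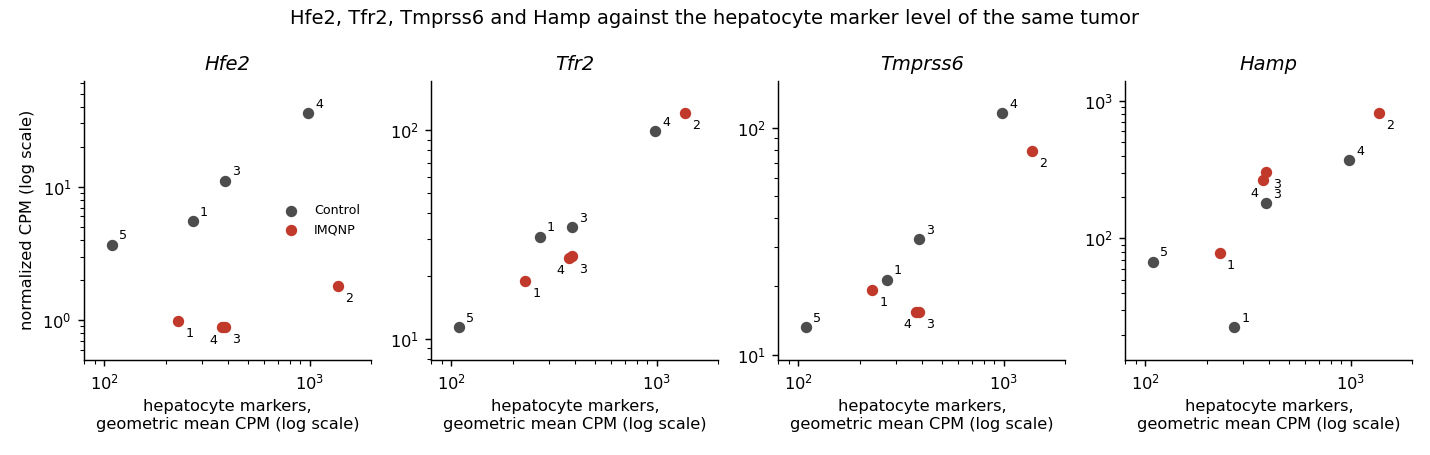
Normalized CPM of Hfe2, Tfr2, Tmprss6 and Hamp (vertical, log axis) against the geometric mean CPM of 17 hepatocyte markers in the same tumor (horizontal, log axis), with replicate numbers beside the points. The 4 treated tumors lie below the saline tumors of like marker level for Hfe2 at 0.882 to 1.82 CPM, while the Hamp points of both groups intermingle.

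With the mean log2 CPM of the hepatocyte markers as a covariate in the edgeR fit, 2.12% of all genes were called lower and 3.30% higher. Without it these shares were 0.200% and 2.26%. *Hfe2* kept a log2 fold change of -3.63 (edgeR adjusted p = 8.0e-05) and *Smad9* of -2.69 (edgeR adjusted p = 0.00375). Since this pair was chosen by the same contrast, these values are a description. The 8 other genes were not called. *Tfr2* had a log2 fold change of -0.45 (edgeR adjusted p = 0.127), *Tmprss6* of -0.83 (edgeR adjusted p = 0.0701) and *Hamp* of 0.70 (edgeR adjusted p = 0.452). *Id1* came to 0.68 with an edgeR adjusted p of 0.0213, below the fold that a call required.

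Both of the tumors with the most hepatocyte transcripts were then left out together, an alternative chosen after seeing the data. *Hfe2* remained called at a log2 fold change of -2.90 (edgeR adjusted p = 0.0141), and *Smad9*, at -2.21, was not called (edgeR adjusted p = 0.159). The part that hepatocyte marker levels played in the levels of the other genes was not tested beyond these fits.

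Markers of the other cells that carry axis genes were compared in the same way. The 12 markers of liver sinusoidal endothelium, the known source of *Bmp2* and *Bmp6* in liver, summed to 222 to 452 CPM with saline and 197 to 326 CPM with PFSUV-IMQ. Against the mean of these markers, log2 CPM residuals from the group means gave r = -0.86 for *Bmp2* and 0.93 for *Bmp6* over the 8 tumors. Which cells gave either transcript in these tumors was not tested. *Stab1*, which gave the most CPM, had a log2 fold change of -0.58 (edgeR adjusted p = 0.518), and *Cdh5*, the highest per kilobase, of -0.05 (edgeR adjusted p = 0.960). The median over the list was -0.48, with 10 of the 12 below 0 and 2 above. By edgeR or DESeq2 0 of the 12 were called, with 0 at an unadjusted p under 0.05. Stellate and fibroblast markers summed to 1118 to 1807 CPM and 1567 to 4221 CPM, most of it from *Col1a1*, whose log2 fold change was 0.87 (edgeR adjusted p = 0.392). Their median log2 fold change was -0.14, with 6 of the 8 tested below 0. EdgeR called 0 of them, and *Lrat*, a retinol-storing enzyme of stellate cells, was the 1 lower by DESeq2 and at an unadjusted p under 0.05 (edgeR log2 fold change -1.81, adjusted p = 0.117).

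The 8 macrophage and Kupffer cell markers summed to 200 to 431 CPM with saline and 107 to 230 CPM with PFSUV-IMQ, with *Csf1r* giving the most CPM. Their median log2 fold change was -0.77, and 7 of the 8 were below 0. EdgeR and DESeq2 each called 1 lower: *Vsig4*, a complement receptor of resident macrophages, fell by 1.62 on the log2 scale (SE 0.354, edgeR adjusted p = 0.0453). At an unadjusted p under 0.05, 4 were lower (*Vsig4*, *Clec4f*, *Cd5l* and *Cd163*) and 0 higher. The macrophage sums were lower in IMQNP 3 and IMQNP 4 than in the other tumors, and their part in the *Hfe2* and *Smad9* values was not tested.

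Levels could be compared between genes only after division by exon length. Per kilobase of exon, the saline mean was highest for *Hamp*, at 391.7 ± 379 normalized CPM per kb (SD, n = 4). It was followed by *Id1* at 68.2 ± 15.9, *Bmp2* at 56.3 ± 25.996, *Smad7* at 17.0 ± 3.22, *Tmprss6* at 13.6 ± 14.1 and *Tfr2* at 10.1 ± 8.80 CPM per kb. *Hfe2* came next at 6.91 ± 7.30, then *Smad6* at 2.62 ± 0.386, *Bmp6* at 0.313 ± 0.200 and *Smad9* at 0.299 ± 0.192 CPM per kb.

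Most neighbours in this order overlapped between saline tumors. Only the steps from *Bmp2* down to *Smad7* and from *Smad6* down to *Bmp6* separated every saline tumor of one gene from every saline tumor of the next. With PFSUV-IMQ, *Hfe2* was at 0.565 ± 0.222 CPM per kb, below *Smad6* at 2.55 ± 0.702 in that group. *Bmp2* was thus present at far higher length-corrected levels than *Bmp6* in both groups.

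**Figure D3:**
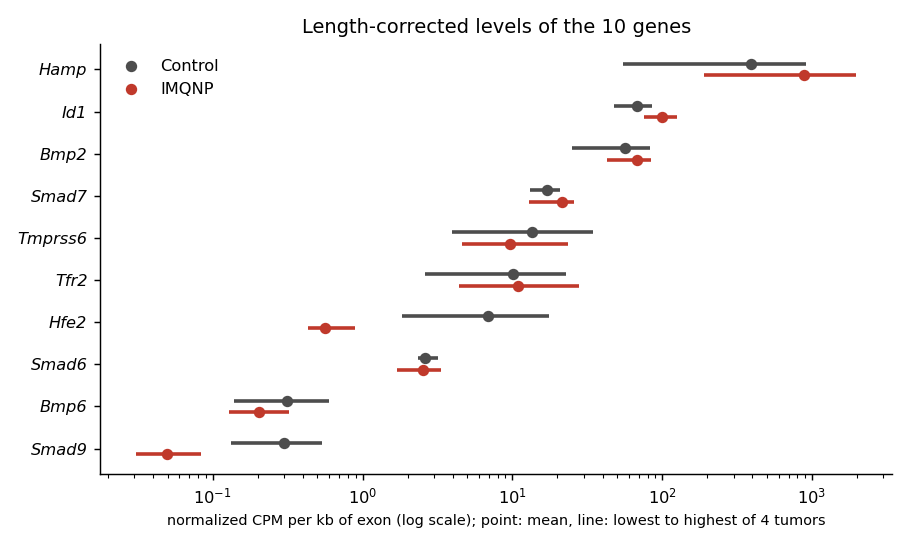
Normalized CPM per kb of exon (log axis) of the 10 genes, ordered by the saline mean. Points are means and lines run from the lowest to the highest of 4 tumors; the lines of the groups part only for Hfe2 (saline 1.82 to 17.6, PFSUV-IMQ 0.435 to 0.896) and Smad9.

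The wider pathway was described by 7 lists that hold 76 further genes, of which 71 were tested. In all, 1 was called higher (*Il6*) and 0 were called lower, against 2.26% and 0.200% of all genes. At an unadjusted p under 0.05, 13 were higher and 2 lower, beside 8.34% and 4.65% of all genes. DESeq2 called 4 higher (*Il6*, *Bmp10*, *Gdf15* and *Slc39a14*) and 1 lower (*Slc40a1*), beside 3.58% and 0.713%. The median log2 fold change of the 71 genes was 0.02, beside -0.03 over all genes tested.

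Of the other ligands 7 of 8 were tested and 0 were called, with a median log2 fold change of 0.27. *Bmp10*, a circulating ligand for endothelial receptors, was at 0.553, 0.527, 1.59 and 0.489 CPM with saline and 1.32, 6.08, 2.62 and 2.59 CPM with PFSUV-IMQ, a log2 fold change of 1.98 (SE 0.561, edgeR adjusted p = 0.125). *Gdf2*, which encodes BMP9, had a log2 fold change of -1.20 (edgeR adjusted p = 0.320). *Gdf15*, a stress-induced member of the same superfamily, did not overlap between groups, with 6.92 to 17.4 CPM against 18.5 to 29.4 CPM and a log2 fold change of 1.03 (edgeR adjusted p = 0.106).

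The receptors and coreceptors moved little. All 12 were tested and 0 were called, with a median log2 fold change of -0.02 and a range of -0.56 to 0.35. The lowest was *Rgma*, a close relative of hemojuvelin, at -0.56 (edgeR adjusted p = 0.735), while *Bmpr1b* was at 0.35 and *Rgmb*, the remaining relative, at 0.21. The hemojuvelin family was therefore covered whole, and of its 3 genes *Hfe2* alone was called. Since *Hfe2* had been chosen by its lower values, nothing is read from this. *Rgma* had only 12 to 33 reads with saline and 6 to 17 with PFSUV-IMQ. Whether the change of *Hfe2* differed from those of *Rgma* and *Rgmb* was not tested.

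The 7 other SMAD and ubiquitin ligase genes had 0 calls and a median log2 fold change of -0.07. *Smad1*, a partner of SMAD8 in the BMP branch, was at 0.29 (edgeR adjusted p = 0.466) with 48.3 to 67.7 CPM against 69.0 to 77.1 CPM. *Smad2*, of the TGF-β branch, was at -0.33, and *Smurf2*, a ubiquitin ligase for receptors and SMADs, at -0.28.

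Of 10 other BMP target genes 9 were tested and 0 were called, with a median log2 fold change of 0.25. The largest were *Msx1* at 0.92 (edgeR adjusted p = 0.335), *Hamp2* at 0.79 and *Id4* at -0.46. Of 11 extracellular antagonists and modifiers 9 were tested and 0 were called, with a median of 0.17. *Fst*, the activin and BMP binder follistatin, was at 21.8 to 38.0 CPM with saline and 42.5 to 57.2 CPM with PFSUV-IMQ, a log2 fold change of 0.79 (SE 0.195, edgeR adjusted p = 0.0740). *Bmper* was at 0.89 (edgeR adjusted p = 0.258) and *Fstl1* at 0.60 (edgeR adjusted p = 0.329).

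All 16 genes of iron sensing and transport were tested and 0 were called, with a median log2 fold change of -0.05. *Slc40a1* encodes ferroportin, the iron exporter that hepcidin removes from the membrane. It was at 37.9, 74.2, 124 and 35.7 CPM with saline and at 15.3, 31.2, 16.8 and 20.5 CPM with PFSUV-IMQ. These groups did not overlap, and the log2 fold change of -1.70 (SE 0.419) had an edgeR adjusted p of 0.0751, outside the threshold. DESeq2 called it lower (adjusted p = 0.00253). *Slc39a14*, the importer ZIP14, was at 106 to 142 CPM against 187 to 428 CPM, a log2 fold change of 1.01 (SE 0.287, edgeR adjusted p = 0.124). *Slc11a2*, the importer DMT1, was at 0.85 (edgeR adjusted p = 0.329).

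The IL-6 and STAT3 input to hepcidin held the one called gene of the 7 lists. *Il6* rose from 0.323, 0.808, 0.430 and 0.706 CPM with saline to 1.54, 7.13, 2.06 and 3.36 CPM with PFSUV-IMQ, a log2 fold change of 2.61 (SE 0.544, edgeR adjusted p = 0.0374). Its call was kept in 1 of the 8 fits that left out a tumor. *Stat3*, the factor that IL-6 activates, was at 167 to 208 CPM against 287 to 445 CPM, with a log2 fold change of 0.84 (SE 0.193, edgeR adjusted p = 0.0578), and *Jak2* was at 0.93 (edgeR adjusted p = 0.262). Of this list 11 of 12 genes were tested, and the median log2 fold change was 0.02.

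**Figure D4:**
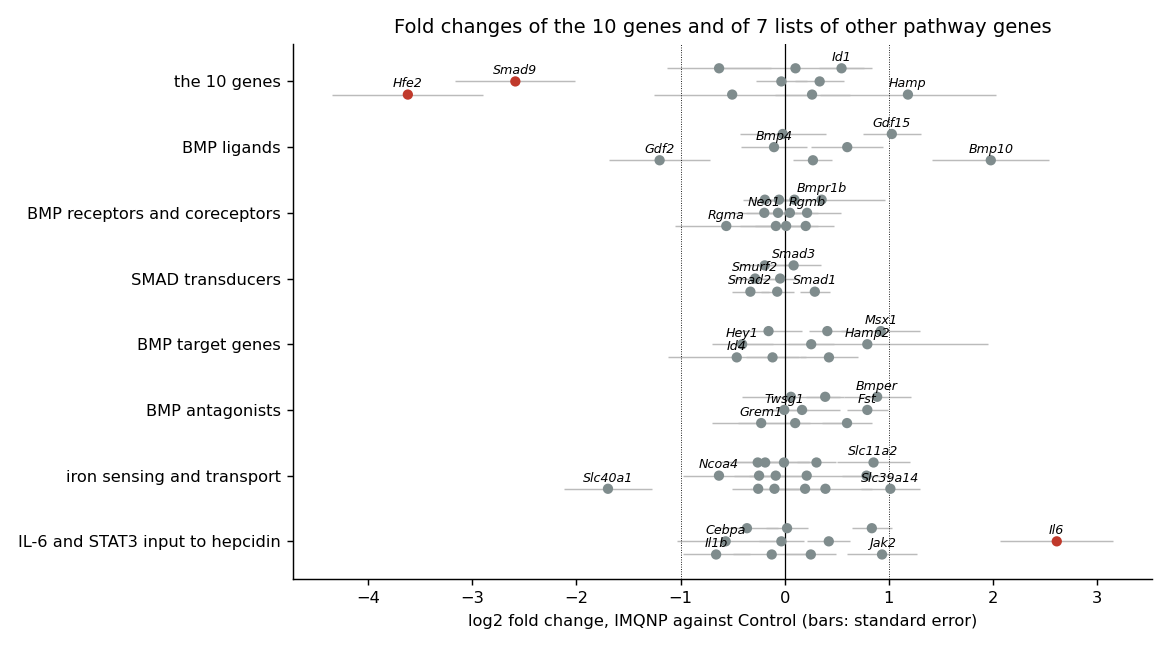
Log2 fold change of PFSUV-IMQ against saline (horizontal, bars of 1 standard error) for the 10 axis genes and the tested genes of 7 pathway lists, with genes at the ends of each list named and dotted lines at a change of 1 in either direction. Called genes are red: Hfe2 and Smad9 on the left and Il6 on the right.

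Likeness to the 3 genes the axis turns on was measured as the Pearson correlation of log2 CPM residuals from the group means over the 8 tumors. All genes of a tumor share its hepatocyte marker level, so the values are a description. Nearest to *Hfe2* were *Gpam*, a mitochondrial acyltransferase of triglyceride synthesis (r = 0.994, Spearman's rho = 0.929), *Mn1* (r = 0.987) and *Fmo4* (r = 0.986), which over 6 tumors without Control 4 and IMQNP 2 gave r = 0.981, 0.961 and 0.979. None of the 3 was called, and their log2 fold changes were -1.12, -1.78 and -1.68. Nearest to *Hamp* were *Samd5* (r = 0.990), *9430038I01Rik* (r = 0.986) and *Gstp-ps* (r = 0.983), and nearest to *Smad9* were *Gapt* (r = 0.959), *Gm44423* (r = 0.958) and *AV356131* (r = 0.956). The last 3 genes averaged 0.554 to 1.17 CPM in either group.

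**Figure D5:**
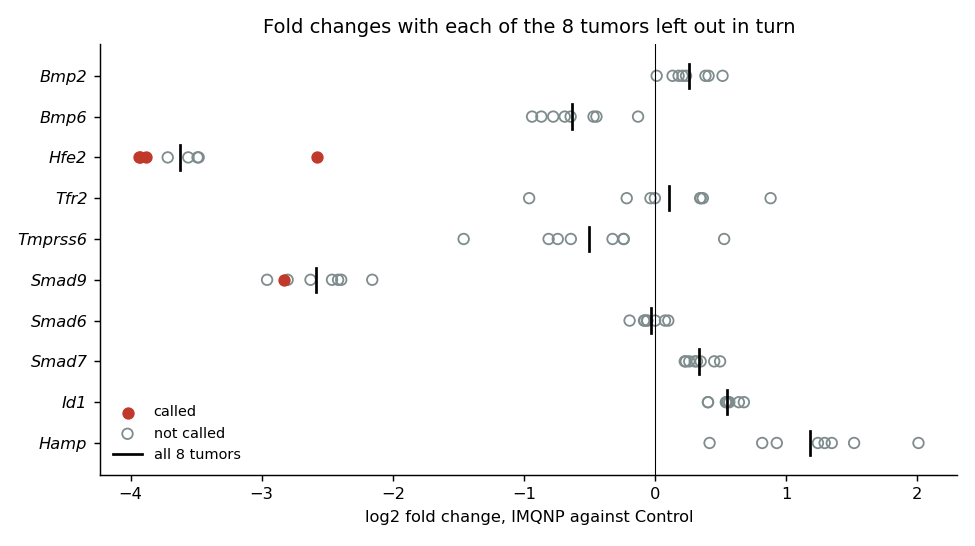
Log2 fold change (horizontal) of each axis gene in the 8 fits that left out a tumor (circles, filled red where called) and with all 8 tumors (black tick). Hfe2 stays between -3.94 and -2.58 and is called in 4 fits, Smad9 is called in 1, and the circles of Tfr2, Tmprss6 and Smad6 fall on both sides of 0.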

How the data were processed

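RNA-seq libraries of 8 tumors were analysed from the table of raw counts per gene that the authors deposited. The sources differ on its making: the study's methods name TopHat and HTSeq, whereas the submitters' processing notes name Trimmomatic 0.38, HISAT2 2.1.0 and featureCounts 2.0.0. The genome build is not given in the sources used here, but all 55536 identifiers are in GENCODE M21 (GRCm38), which supplied coordinates and exon lengths. A second table deposited by the authors holds signal values, the counts of 36670 genes divided by 1 size factor per tumor, and was not used for tests. The study's methods give a younger age than the labels, for the mice as purchased, so these ages may belong to different times.

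Counts were fitted in R 4.3.3 with edgeR 4.0.16 (TMM normalization, the default filter on low counts, the quasi-likelihood test and no covariate), with Benjamini-Hochberg adjustment over 15998 genes. Called genes had a log2 fold change over 1 in size and an adjusted p under 0.05. Normalized CPM used the TMM factors, and log2 CPM a prior count of 2. DESeq2 1.42.0 was an alternative, beside its size factors in edgeR, no filter, at least 10 counts in every tumor, no limit on the fold change, a replicate term, a hepatocyte marker covariate and each tumor left out in turn. Within a group the counts of any pair of tumors differed beyond sampling noise (a chi-square of 29.0 to 291 for each degree of freedom). The fit was checked on simulated counts. Figures were drawn in Python 3.11.15 with matplotlib 3.10.9.

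The 10 genes, the pathway and marker lists and the tests were chosen with earlier results of these data known. The text names all 10 genes, of each pathway list the called genes and the 3 with the largest change, of each marker list the gene of highest mean CPM and any called gene, and for *Hfe2*, *Smad9* and *Hamp* the 3 most correlated genes. *Myh4*, *Tnnc2*, *Mylpf*, *Tnni2*, *Cdh5*, *Lrat*, *Clec4f*, *Cd5l*, *Cd163* and *Cebpa* were named after their values were seen. The floor of 3 counts and all read numbers reflect counting error only. Promoter windows are RefSeq's on GRCm38.p6.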

Additional observations from a re-analysis of the deposited data

Results flagged for a closer look

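In 3 of 20 groups of 4 tumors (10 genes in 2 groups), 1 tumor lay farther from the others than Dixon's 95% limit allows, and it was PFSUV-IMQ tumor 2 each time. It held *Hfe2* at 1.82 normalized CPM, where the other 3 treated tumors were at 0.882 to 0.993. *Tfr2* was at 121 CPM there against 19.0 to 24.9, and *Tmprss6* at 78.9 CPM against 15.5 to 19.3. Chance flags about 1 in 20 groups, and the 3 genes share this tumor, so the flags are not independent of each other. The same tumor had the highest hepatocyte marker sum of the 8, at 54260 CPM. It also had the highest sum of interferon-stimulated genes, at 18986 CPM, and the highest mitochondrial share of counts, at 6.65%. Its TMM factor was the lowest, at 0.843. The part of each in these values was not tested.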

How the results depend on the processing

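The calls of *Hfe2* and *Smad9* held under DESeq2's size factors, no filter on low counts, the DESeq2 Wald test and the hepatocyte covariate. Dropping the limit on the fold change reuses the main fit and can only add calls, so it is no check of this pair. With at least 10 counts in every tumor, 1 axis gene was called lower and 0 pathway genes higher, since *Smad9* and *Il6* were removed. Without a filter, 63 genes and 1 pathway gene (*Slc40a1*) were called lower. DESeq2 called 572 genes higher and 114 lower, with 4 and 1 pathway genes. The covariate gave 339 genes lower, 3 pathway genes higher (*Il6*, *Bmp10* and *Gdf15*) and 2 lower (*Slc40a1* and *Gdf2*), and turned *Smad6* to 0.043 and *Tfr2* to -0.45.

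Leaving out 1 tumor gave 197 to 375 genes higher and 8 to 38 lower, 0 to 2 axis genes lower, 0 to 1 pathway genes higher and 0 to 1 lower. *Smad6* ranged from -0.19 to 0.10, *Tfr2* from -0.96 to 0.88 and *Tmprss6* from -1.46 to 0.53. Without Control 4 and IMQNP 2 together, 1 axis gene (*Hfe2*) and 1 pathway gene (*Slc40a1*) were lower, *Bmp10* in place of *Il6* was higher, and *Smad6* (0.071) and *Tfr2* (-0.19) reversed.

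Tumors numbered 1, 3 and 4 exist in each group, but those sharing a number are of different animals and did not deviate together (residual r = 0.29, -0.27 and -0.32). Control 5 and IMQNP 2 have no partner number, so a replicate block rests its contrast on the tumors numbered 1, 3 and 4. With this block, 267 genes were lower, 2 pathway genes higher (*Il6* and *Gdf15*) and 2 lower (*Slc40a1* and *Cebpa*), both axis calls were kept, and *Smad6* (0.21) and *Tfr2* (-1.06) reversed. The causes of these differences were not tested. *Smad9* and *Bmp6*, with 3 to 8 and 9 to 18 reads in treated tumors, are limited by depth.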
